A study of Bos taurus with 30 samples.

Results

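The transcriptome of the embryonic disc (ED) of cattle was compared on day 15 between embryos made in vitro (in vitro produced, IVP) and embryos conceived in the cow (in vivo, IVV), using every ED library of the series and no selection by expression. These are 16 of its 30 libraries, 7 from IVP and 9 from IVV embryos, each from a different embryo. The other 14 libraries, 6 IVP and 8 IVV, came from the extra-embryonic membranes (EEM) of 14 embryos, 13 of which also gave a disc, and serve here for comparison only. IVP embryos grew from oocytes of slaughterhouse ovaries that were matured, fertilized and cultured in serum-free medium, and were transferred on day 7 to 2 recipient cows. IVV embryos were conceived by insemination of 2 cows after superovulation. Both kinds of embryo were Holstein and were flushed from the uterus on day 15. The recipients and the superovulated donors are different cows under different hormone treatments, so that the procedure and the maternal environment cannot be told apart. The labels give neither the length nor the sex of an embryo. The authors report shorter embryos in the IVP group, and a disc in a smaller share of those recovered. Embryos lacking a disc were left out. Their methylation model held sex and morphology as covariates, and their expression test controlled for morphology. What part length or this selection has in the results below was not tested. With 2 cows per group, some embryos of a group shared a cow, and p-values measure the spread between these embryos only.

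By day 15 the bovine embryo is an elongating filament of trophoblast and hypoblast that carries a small disc of epiblast. The disc gives rise to the whole body, while the membranes around it become placenta and yolk sac. Gastrulation begins in the disc when epiblast cells move through the primitive streak under BMP, Wnt, Nodal and FGF signals and leave it as mesoderm and endoderm. The trophoblast of this stage secretes interferon tau, which signals pregnancy to the cow.

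Between 48713218 and 63037371 counts per ED library fell on genes, and no library was a copy of another, since even the closest pair of discs differed beyond 2 sampling standard deviations in 67.1% of its genes. Counts were given as CPM, a gene's counts relative to the library size scaled by TMM. Below, a pair of values joined by "against" gives the mean and SD of the 7 IVP discs first and of the 9 IVV discs second. The libraries keep no strand, so reads of a gene and of an overlapping antisense gene cannot be told apart. The ED label was checked against marker genes. POU5F1, the core pluripotency factor of the epiblast, reached 17.7 to 45.4 CPM (median 28.8) in the IVP discs and 28.2 to 240.2 CPM (median 74.1) in the IVV discs, and stood at 0.385 to 2.30 CPM in the EEM. SOX2 was listed at 0 in all 30 libraries, so it marks nothing here. The isolated discs also held much surrounding tissue. The summed CPM of the 26 trophoblast markers in the table ran from 17000 to 97530 (median 47200) in IVP discs and from 40710 to 61390 (median 49030) in IVV discs, and IFNT3, an interferon tau gene, averaged 1288 ± 679.8 CPM against 1445 ± 319.8 CPM. Hypoblast markers summed to 2103 to 4638 CPM (median 2450) in IVP and 1545 to 3083 CPM (median 2614) in IVV discs. Of the markers of maternal tissue PAEP was at 0, HBB at most 0.0798 CPM and SERPINA14 at most 0.045 CPM in every disc, and PTPRC, the pan-leukocyte marker, at 0 in the IVP discs and at most 1.04 CPM in the IVV discs. Other members of these lists were present. ALAS2, an enzyme of heme synthesis in red cell precursors, was at 3.68 to 17.5 CPM (median 10.3) in the IVP discs and 6.42 to 44.2 CPM (median 15.4) in the IVV discs, and the summed blood list, with 9 genes in the table, reached 3.79 to 18.2 CPM in IVP and 6.66 to 44.4 CPM in IVV discs. The summed uterine list, with 10 genes in the table, ran from 9.04 to 25.7 CPM in IVP and from 17.4 to 38.4 CPM in IVV discs, and holds MSX1, which is described below. In such tissue pieces, fewer cells of a type and less RNA per cell cannot be told apart.

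XIST, the RNA that coats the inactive X chromosome of female cells, was near 0 in all 7 IVP discs, at 0 to 0.319 CPM. It stood at 48.2 to 158 CPM in 7 IVV discs and near 0 in the other two, at 0.0175 CPM in VE3 and 0.0162 CPM in VE5. XIST therefore moves with the procedure in these discs, and the table named none of the Y-linked genes looked for. The counts below were repeated with XIST as a covariate. Among IVV discs only VE3 and VE5 share the low XIST of the IVP discs. That fit therefore parts the procedure from XIST mainly through these discs. Embryo sex, which XIST may mark and the labels do not give, can hardly be told apart from the procedure.

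Of the 15733 genes with enough counts to be tested, 998 (6.34%) differed between IVP and IVV discs at an adjusted p under 0.05 in edgeR's quasi-likelihood test, and these are called DEG below. Most of them were lower in IVP discs, with 778 lower (4.95% of the genes tested) and 220 higher (1.4%). An unadjusted p under 0.05 was reached by 2902 genes. With XIST as a covariate 601 genes were lower and 52 higher, so that the lower DEG made up 92.0% of all DEG in place of 78.0%. Without the discs IVP11 and VE19, which had the lowest TMM factors and the most extreme surrogate variable, 1027 were lower and 276 higher. Without VE29 alone the counts were 499 and 140, and without VE28 or VE5 the lower DEG numbered 510 and 506.

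The 2 classes of DEG differed in abundance. The lower DEG were mostly rare transcripts, with a median of 1.35 CPM over the 16 discs and 41.1% of them under 1 CPM, and 337 of the 778 had a fitted change of at least 4-fold. The higher DEG had a median of 5.02 CPM, 38.6% were at 10 CPM or more, and 32 of the 220 were changed at least 4-fold. Genes that were not called had a median of 14.6 CPM. Protein-coding genes made up 738 of the lower and 185 of the higher DEG. Summed over the lower DEG, an IVP disc held 3558 to 5024 CPM and an IVV disc 7185 to 11980 CPM. For the higher DEG the sums were 10320 to 16100 CPM in IVP and 5034 to 11400 CPM in IVV discs, where only VE19, at 11400 CPM, reached into the IVP range. These sums describe the genes as called and are no test. The discs VE3 and VE5, with XIST near 0, held 8415 and 10820 CPM of the lower DEG and 5588 and 6257 CPM of the higher DEG, within the range of the other IVV discs in both.

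Without use of the labels, the first principal component of log2 CPM over all tested genes held 23.2% of the variance. IVP discs lay between -59.8 and -17.9 on it and IVV discs between 0.95 and 69.7. VE4, at 0.95, and VE24, at 2.65, were the IVV discs nearest to the IVP discs, and IVP14, at -17.9, was the IVP disc nearest to the IVV discs. The second component, with 14.9%, had its highest scores within each group in IVP11 and VE19.

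**Figure D1:**
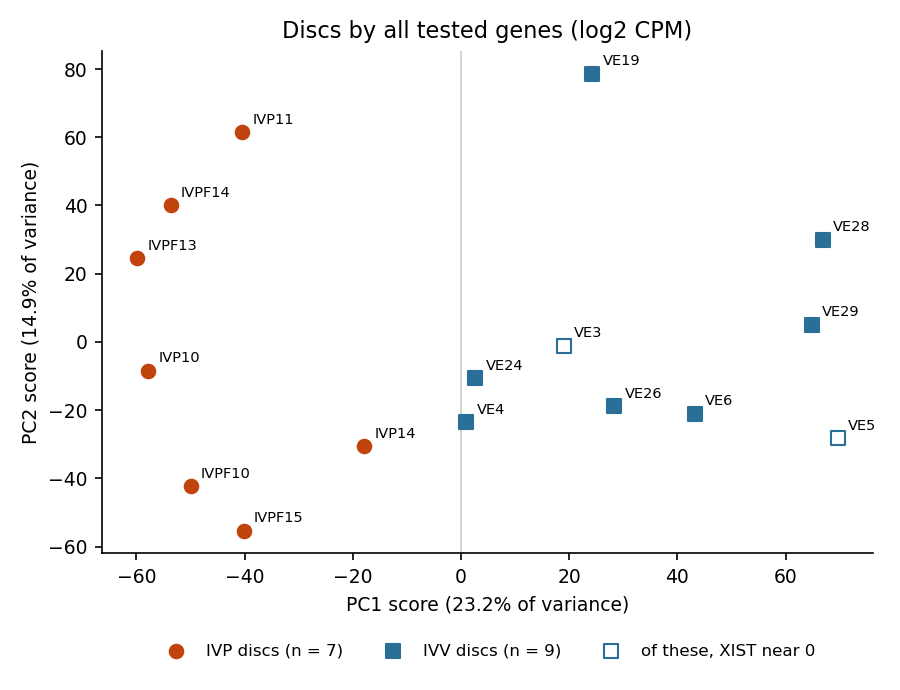
Principal components of log2 CPM over the 15733 tested genes, one point per disc (7 IVP, 9 IVV), with the first component on the x axis (23.2% of the variance) and the second on the y axis (14.9%), both in units of the component score. Open symbols mark the 2 IVV discs with XIST near 0. All IVP discs lie at or below -17.9 and all IVV discs at or above 0.95 on the first component.

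Each disc was also left out in turn, DEG were called in the other 15, and the left-out disc was placed on the IVP or the IVV side of the midpoint between the group means. The median share of these DEG on the side of the disc's own group was 74.8%. It was highest for VE29 (93.6% of 639 DEG), VE28 (93.1% of 670) and IVPF13 (91.3% of 761), and lowest for VE4 (51.8% of 1160), VE24 (55.5% of 1104) and IVP14 (56% of 1159), which are again the 3 discs nearest to the other group. For VE3 and VE5 it was 73.8% of 945 and 80.4% of 684 DEG. Without use of VE4 itself, this disc was placed with the IVV discs for 46.2% of the lower DEG and 77.5% of the higher DEG called without it.

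The groups did not overlap at all for 113 genes lower in IVP discs (0.718% of the genes tested) and for 22 higher ones (0.14%), and of these 113 and 20 were DEG. Over the whole table, genes with too few counts for the test included, 30 genes had at most 3 counts in each IVP disc, taken here as the floor, and more than 3 in each IVV disc. Of these 15 were tested, and the 15 were DEG. With a floor of 10 counts for both groups there were 26 such genes, 8 of them among the 30, since rarer genes then fall below the floor in IVV discs too. Only 1 gene, known by a LOC number, showed the reverse. Among the 30 are regulators of mesoderm, blood, head and limb tissue (FLI1, FOXF2, PAX9, HOXA13, HOXD1), the signal FGF3, the surface proteins CD34 and CCR8 and the matrix proteins EFEMP1 and HAPLN1, of which PAX9, HOXD1, FGF3, CCR8, EFEMP1 and HAPLN1 were not tested, named here after their values were seen where the rule for named genes does not hold them. FLI1, an ETS factor of blood and vessel precursors, reached 0.135 to 8.04 CPM (median 2.77) in the IVV discs, so that its mean was at least 54.3-fold lower in IVP discs. Such bounds set the IVV mean against the floor, which stands for the IVP level. Single IVV discs can lie nearer to the floor. CCDC188, a coiled-coil protein gene, reached 0.575 to 5.84 CPM (median 1.26) and was at least 33-fold lower in IVP discs. For MYO3A, an actin motor known from hair cells of the ear, the IVV discs held 0.559 to 4.77 CPM (median 1.73), a difference of at least 29.4-fold. CD34, a surface protein of blood and vessel progenitors, was at 0.225 to 1.86 CPM (median 0.438) in IVV discs and at least 12.2-fold lower in IVP discs. FOXF2, a forkhead factor of mesenchyme, was at least 13.4-fold and CYTL1, a secreted protein, at least 12.7-fold lower. None of these 6 genes overlapped between the groups, and none had enough counts to be tested between IVP and IVV in the EEM.

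The list with the highest share of lower DEG, XIST aside, was that of the primitive streak and the early mesoderm. Of its 22 tested genes 14 were lower in IVP discs, against 4.95% lower among all genes, and the median log2 fold change of the list was -1.93, against -0.01 over all genes. The 14 are APLNR, MESP1, MESP2, WNT3, WNT3A, MIXL1, FOXF1, TBX6, EVX1, CDX1, CDX4, SNAI2, TBXT and EOMES. APLNR, the receptor that guides mesoderm cells leaving the streak, stood at 0 to 0.706 CPM (median 0.14) in the IVP discs and 0.225 to 32.9 CPM (median 13.4) in the IVV discs, and one IVV disc, VE19, lay among the IVP values. Its fitted change was a log2 fold change of -6.58 ± 0.76 (SE, edgeR adjusted p = 1.01e-05). MESP2, a bHLH factor that sets the borders of somites, was at 0 to 0.403 CPM (median 0.298) in the IVP discs and 1.52 to 8.63 CPM (median 3.9) in the IVV discs, with no overlap of the groups and a log2 fold change of -4.45 ± 0.55 (SE, edgeR adjusted p = 2.29e-05). FOXF1, a forkhead factor of lateral mesoderm, was at 0 to 0.672 CPM (median 0.193) in the IVP discs and 0.203 to 9.68 CPM (median 4.39) in the IVV discs, with a log2 fold change of -3.75 ± 0.68 (SE, edgeR adjusted p = 0.00154). HAND1, the most abundant gene of the list and also a trophoblast factor, did not pass the test, at 3.21 to 46.8 CPM (median 17.9) in the IVP discs and 13.5 to 97.6 CPM (median 51.6) in the IVV discs (edgeR adjusted p = 0.0614). Of these 14 genes 13 were lower with XIST as a covariate too, and without IVP11 and VE19 the list had 16 lower genes, the 14 among them.

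Tissues that arise from the streak followed with smaller shares. Cardiac and lateral mesoderm had 7 of 21 genes lower (BMP4, FOXF1, ACTC1, TBX5, GATA5, TNNI1, NKX2-5), and presomitic mesoderm with Notch signaling had 7 of 19 (MESP2, LFNG, HEY1, TBX6, PAX3, NOTCH1, DLL3). LFNG, the enzyme that modifies Notch in the segmentation clock, was at 0.279 to 2.42 CPM (median 1.17) in the IVP discs and 2.45 to 7.27 CPM (median 3.9) in the IVV discs, with no overlap. Mesenchyme and contractile genes had 8 of 22 lower (CDH11, MSX1, MSX2, CNN1, DES, SNAI2, TPM2, ACTA2). CDH11, a cadherin of loosely packed mesenchymal cells, was at 0.389 to 2.4 CPM (median 0.915) in the IVP discs and 0.518 to 26 CPM (median 10.2) in the IVV discs, with a log2 fold change of -3.41 ± 0.47 (SE, edgeR adjusted p = 8.12e-05). MSX1, a homeobox gene of mesenchyme that is also expressed in the uterus, was at 3.43 to 11.4 CPM (median 5.71) in the IVP discs and 11.2 to 33.4 CPM (median 25.4) in the IVV discs. With XIST as a covariate cardiac mesoderm and the mesenchymal list each had 4 lower genes, while presomitic mesoderm had the same 7.

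Blood and endothelial progenitors had 5 of 20 genes lower (FLI1, CD34, KDR, LMO2, SOX7) and 3 higher (SOX18, RUNX1, ESAM). The higher genes numbered 1 when IVP11, IVP14, IVPF14, VE3 or VE6 was left out. KDR, the VEGF receptor of the first vessel and blood precursors, was at 0 to 0.702 CPM (median 0.4928) in the IVP discs and 0.788 to 34.8 CPM (median 13.9) in the IVV discs, so that no IVP disc reached the lowest IVV disc, and it had a log2 fold change of -5.10 ± 0.63 (SE, edgeR adjusted p = 2.38e-05). SOX18, a factor of endothelial cells, was higher, at 0.378 to 9.62 CPM (median 3.28) in the IVP discs and 0.379 to 1.94 CPM (median 1.25) in the IVV discs, with a log2 fold change of 1.97 ± 0.49 (SE, edgeR adjusted p = 0.0159). RUNX1, a blood factor, was at 4.12 ± 1.62 CPM against 2.12 ± 0.385 CPM (SD, n = 7 and 9). GATA2, shared by blood and trophoblast and the most abundant of the list, was at 256 ± 198 CPM against 181 ± 53.5 CPM and did not pass the test (edgeR adjusted p = 0.567). None of the 3 higher genes was called with XIST as a covariate, where the log2 fold change was 2.21 for SOX18 and 0.90 for RUNX1, against 0.90 for RUNX1 without it. Of the 15 tested genes of the node, the notochord and definitive endoderm, 0 were DEG by edgeR, while 6 were lower at an unadjusted p under 0.05 and 4 were lower by DESeq2.

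**Figure D2:**
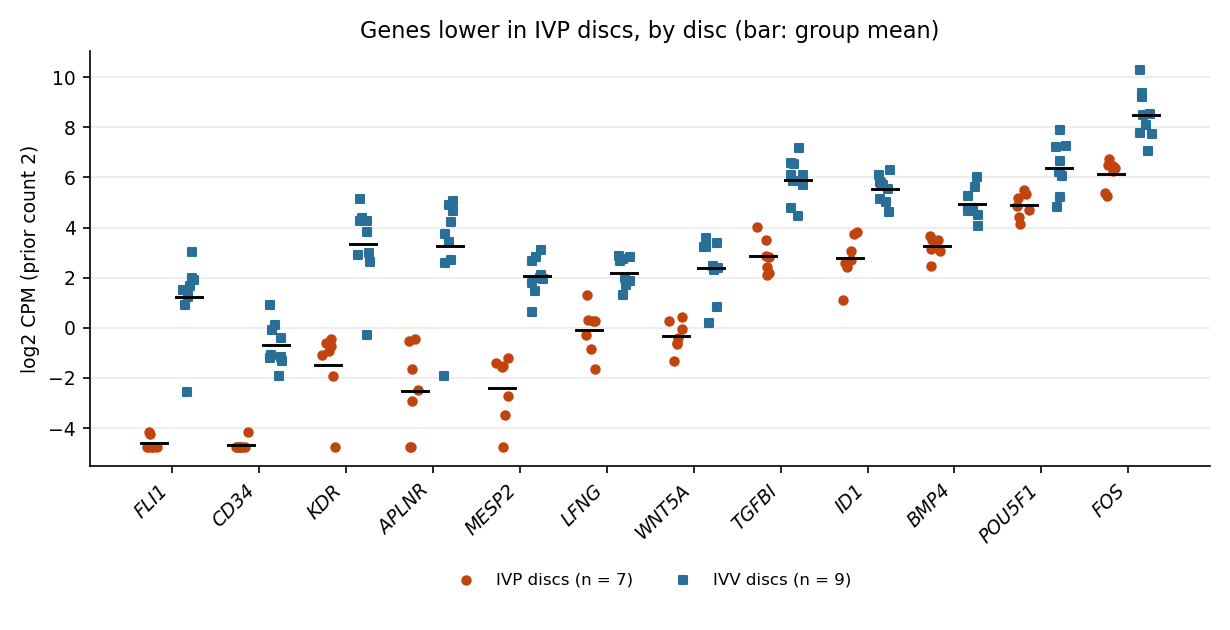
Log2 CPM (prior count of 2) of 12 genes lower in IVP discs, one point per disc, with 7 IVP and 9 IVV discs side by side for each gene and a bar at each group mean. For FLI1, CD34, KDR, MESP2, LFNG, TGFBI, ID1, BMP4 and FOS no IVP disc reaches the lowest IVV disc, while APLNR, WNT5A and POU5F1 overlap.

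Signaling genes were among the lower DEG as well. BMP signaling had 9 of 26 tested genes lower and 1 higher. The lower ones were ligands (BMP4, BMP6), modulators (BMPER, BAMBI), an effector (SMAD9), inhibitory SMADs (SMAD6, SMAD7) and ID genes, which BMP induces directly. ID1 was at 2.12 to 14.1 CPM (median 6.42) in the IVP discs and 24.3 to 79.3 CPM (median 51.8) in the IVV discs, with no overlap and a log2 fold change of -2.82 ± 0.34 (SE, edgeR adjusted p = 1.71e-05). BMP4, the ligand that induces mesoderm and germ cells at the edge of the disc, was at 5.51 to 12.8 CPM (median 11.2) in the IVP discs and 16.8 to 65 CPM (median 27.5) in the IVV discs, again with no overlap. ID4 had a log2 fold change of -2.48 ± 0.37 (SE, edgeR adjusted p = 0.000195). VWC2, a secreted BMP modulator, was the gene that rose, at 0.418 ± 0.269 CPM against 0.106 ± 0.0538 CPM (SD, n = 7 and 9). FST, a binding protein of activin and BMP and the most abundant of the list, averaged 91.8 ± 41.2 CPM against 99.8 ± 18.9 CPM and did not pass the test.

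In Wnt signaling 10 of 43 genes were lower and 1 higher. The lower genes were ligands (WNT3, WNT3A, WNT5A, WNT10B), receptors (FZD2, ROR2), the transcription factor LEF1, and antagonists of the pathway (NKD1, NOTUM, SFRP1). WNT3, a ligand that mouse embryos need to form the streak, was at 0.18 to 0.79 CPM (median 0.457) in the IVP discs and 0.937 to 8.45 CPM (median 2.46) in the IVV discs, with no overlap. WNT5A, a ligand of non-canonical Wnt signaling, was at 0.362 to 1.29 CPM (median 0.719) in the IVP discs and 1.1 to 12.1 CPM (median 5.49) in the IVV discs, with a log2 fold change of -3.13 ± 0.43 (SE, edgeR adjusted p = 6.77e-05). RSPO3, which amplifies Wnt signals, was higher, at 18.1 ± 9.39 CPM against 8.45 ± 4.08 CPM. WNT11, the most abundant Wnt ligand of the list, averaged 70.7 ± 36.8 CPM against 62.8 ± 14.5 CPM and was not called. With XIST as a covariate 6 of the 9 lower BMP genes and 8 of the 10 lower Wnt genes were called.

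Nodal and TGF-beta signaling had 4 of 27 genes lower. One of them was TGFBI, a matrix protein induced by TGF-beta, at 4.23 to 16.4 CPM (median 7.07) in the IVP discs and 21.8 to 146 CPM (median 67.7) in the IVV discs, with no overlap and a log2 fold change of -3.18 ± 0.38 (SE, edgeR adjusted p = 1.77e-05). For FGF ligands, receptors and feedback inhibitors 1 of 23 was lower, FGF19, at 1.18 ± 0.544 CPM against 4.12 ± 2.82 CPM, a share close to that of all genes. At an unadjusted p under 0.05 9 of the 23 were lower, against 1910 of all 15733 tested genes, and 18 fitted values were below 0. IHH, a Hedgehog ligand, averaged 21.5 ± 10.8 CPM against 21.7 ± 8.64 CPM and was not called. The retinoic acid list had 5 of 19 lower (CRABP1, CRABP2, STRA6, CYP26B1, RARG) and 1 higher. STRA6, the receptor that takes up retinol, was at 0 to 0.597 CPM (median 0.248) in the IVP discs and 0.495 to 15 CPM (median 3.06) in the IVV discs. The higher gene, ALDH1A3, which makes retinoic acid, was at 1.97 to 13.2 CPM (median 3.87) in the IVP discs and 1.22 to 3.27 CPM (median 1.64) in the IVV discs, and had a log2 fold change of 1.35, and of 1.33 with XIST as a covariate, where it was not called (edgeR adjusted p = 0.181).

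Among receptors and ligands of the IGF, PDGF, EGF and VEGF families 10 of 33 were lower and 1 higher. The lower ones include the receptors KDR, PDGFRB and NRP1, the EGF-like ligands NRG1, BTC and TGFA, and IGF2. PDGFRB, the PDGF receptor of mesenchyme, was at 0.13 to 0.991 CPM (median 0.359) in the IVP discs and 0.18 to 7.73 CPM (median 4.96) in the IVV discs. IGF2, an imprinted growth factor, was at 6.34 to 26.3 CPM (median 10.9) in the IVP discs and 8.2 to 69.4 CPM (median 29.3) in the IVV discs, with a log2 fold change of -1.19 ± 0.35 (SE, edgeR adjusted p = 0.0436). Its log2 fold change was -0.08 with XIST as a covariate (edgeR adjusted p = 0.997), and it was not called without the surrogate variable either. Of the IVV discs 4 lay inside the IVP range of IGF2, VE3 at 10.8 CPM and VE5 at 18 CPM, with XIST near 0, and VE19 at 8.2 CPM and VE24 at 15.9 CPM, with high XIST. PDGFB, a ligand of PDGFRB, was higher in IVP discs, at 8.07 to 29.6 CPM (median 16.6) in the IVP discs and 5.43 to 12.2 CPM (median 7.09) in the IVV discs, with a log2 fold change of 1.14 ± 0.24 (SE, edgeR adjusted p = 0.00518). The ligand and its receptor thus moved in opposite directions. For the neural plate and neural crest 1 of 22 genes was lower, OLIG3, a neural bHLH factor, at 0.235 ± 0.18 CPM against 1.09 ± 1.24 CPM, and 2 were higher, PAX2, at 1.18 ± 0.707 CPM against 0.431 ± 0.487 CPM, and TFAP2B, at 0.569 ± 0.247 CPM against 0.193 ± 0.116 CPM. The lower share, 4.55%, is close to the 4.95% of all genes. IRX3, the most abundant of that list, averaged 205 ± 164 CPM against 174 ± 74.8 CPM and was not called.

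**Figure D3:**
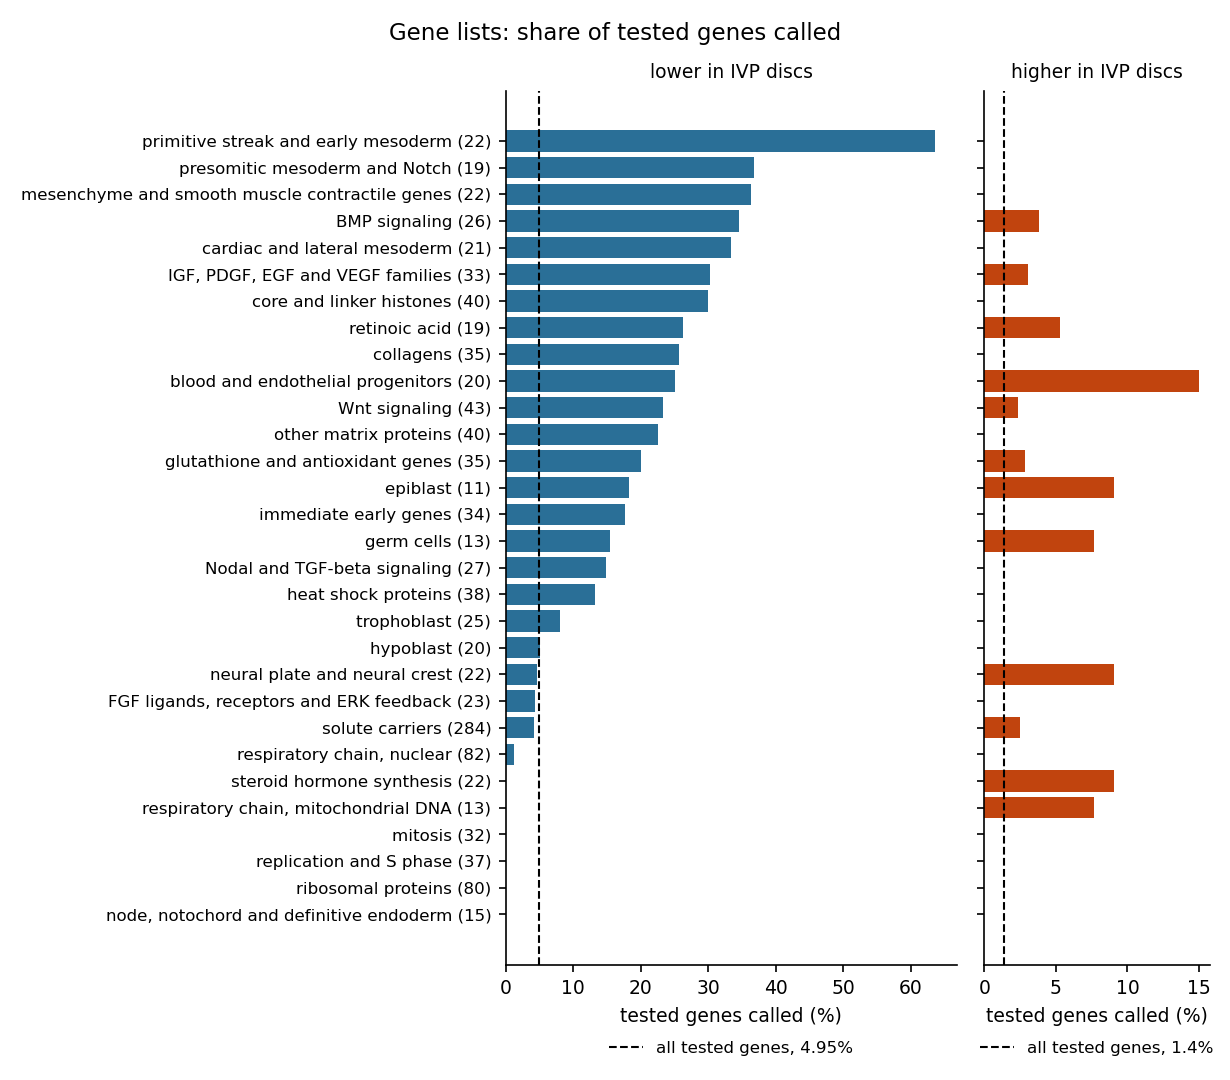
Share of tested genes called lower (left, percent) and higher (right, percent) in IVP discs for 30 gene lists, with the number of tested genes in brackets and dashed lines at the shares over all tested genes, 4.95% and 1.4%. The streak and early mesoderm list has the largest lower share of those drawn, while ribosomal proteins, S phase and mitosis have 0.

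How far these counts rest on single discs was followed by leaving out each disc in turn. The number of lower genes stayed between 13 and 16 for the primitive streak list, 7 and 9 for cardiac mesoderm, 6 and 8 for mesenchyme, 5 and 7 for presomitic mesoderm, 7 and 10 for BMP signaling and 10 and 14 for histones. It moved by more than 1.5 times for Wnt signaling (6 without VE5), the IGF, PDGF, EGF and VEGF families (6 without VE28), collagens (5 without VE28, VE29 or VE6), retinoic acid (3 without IVP11, IVPF13, IVPF14, VE28 or VE29), cadherins (3 without VE5), guidance cues (3 without VE28 or VE29, 10 without VE4), homeobox genes (19 without VE4), glutathione genes (4 without VE28 or VE29), immediate early genes (11 without IVP11 or IVPF15, 10 without VE4), ion channels (12 without VE5) and MHC genes (2 without VE29, 1 without VE5). For cytokines the count was 3 to 8 and for zinc finger genes 3 to 16, with the lowest values without VE28 and VE5 respectively. Lists with few lower genes moved as well. Among them were nuclear genes of the respiratory chain (0 to 7), integrins (2 to 4), the FGF list (1 to 3), histone modifying enzymes (1 to 3) and the neural plate list (0 to 3).

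Extracellular matrix holds tissues together and guides moving cells. Collagens had 9 of 35 tested genes lower and other matrix proteins 9 of 40. COL9A2, a collagen best known from cartilage, was at 0.114 to 1.92 CPM (median 0.83) in the IVP discs and 1.62 to 17.4 CPM (median 4.34) in the IVV discs, with a log2 fold change of -3.25 ± 0.56 (SE, edgeR adjusted p = 0.000906). TNC, the anti-adhesive tenascin of migrating mesenchyme, was at 0 to 0.298 CPM (median 0.246) in the IVP discs and 0.968 to 3.71 CPM (median 2.68) in the IVV discs, with no overlap. FBN2, an embryonic fibrillin, was at 0.838 to 1.19 CPM (median 0.908) in the IVP discs and 0.851 to 5.6 CPM (median 3.25) in the IVV discs. The abundant basement membrane genes did not pass the test, with COL4A1 at 644 ± 452 CPM against 412 ± 188 CPM and FN1 at 3457 ± 1657 CPM against 2402 ± 579 CPM. In the fit with XIST 5 collagens and 8 other matrix genes were lower.

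Among cadherins and protocadherins 5 of 29 were lower, among them PCDH10, at 0.259 to 1.17 CPM (median 0.61) in the IVP discs and 1.36 to 9.16 CPM (median 4.39) in the IVV discs. CDH1, the epithelial cadherin, averaged 287 ± 121 CPM against 210.0 ± 74.1 CPM and was not called. Integrins had 2 of 24 lower (ITGAL and ITGB2, which together form a leukocyte integrin) and 1 higher (ITGA5, the fibronectin receptor chain, at 52.4 ± 20.4 CPM against 27.1 ± 9.67 CPM). ITGAL was at 0.359 ± 0.275 CPM against 1.46 ± 0.529 CPM and ITGB2 at 1.72 ± 1.3 CPM against 5.66 ± 3.08 CPM. PTPRC, whose values are given above, also had its highest values in IVV discs. IVP10, where PTPRC was at 0, held 4.25 CPM of ITGB2. The part of leukocytes in the result of these 2 genes was not tested. Claudins and connexins had 3 of 24 lower and 1 higher. CLDN10, a claudin of tight junctions, was at 0 to 0.851 CPM (median 0.279) in the IVP discs and 0.202 to 11.2 CPM (median 8.27) in the IVV discs, and GJB5, a connexin, at 0 to 0.168 CPM (median 0.0701) in the IVP discs and 0.0675 to 1.05 CPM (median 0.536) in the IVV discs. Guidance cues and their receptors (semaphorins, netrins, slits, ephrins) had 5 of 56 lower and 1 higher, with the slit receptor ROBO2 at 0.0504 to 0.114 CPM (median 0.0778) in the IVP discs and 0.165 to 2.68 CPM (median 0.767) in the IVV discs and no overlap, and the netrin receptor UNC5C with a log2 fold change of -2.60 ± 0.47 (SE, edgeR adjusted p = 0.00129). SEMA4B rose, at 140.1 ± 55.9 CPM against 60.8 ± 19.5 CPM.

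Transcription factors were followed by family. Of 64 tested T-box, GATA, forkhead and SOX factors 12 were lower and 1 higher, of 83 homeobox genes outside the HOX clusters 12 were lower and 1 higher, and of 55 bHLH factors 8 were lower. LHX4, a LIM homeobox gene, was at the floor in the IVP discs and at 0 to 1.97 CPM (median 0.73) in the IVV discs. Its mean was at least 16.1-fold lower in IVP discs, although the IVV disc VE3 had no count either. Of 24 HOX genes only HOXA13 was a DEG in this fit, at the floor in IVP discs and at 0.177 to 0.45 CPM (median 0.28) in IVV discs, at least 5.2-fold lower. HOXB8, the most abundant HOX gene, averaged 11 ± 7.74 CPM against 10.4 ± 3.09 CPM and did not pass the test. Of the 284 tested zinc finger genes 10 were lower, or 3.52%, which is under the share of all genes.

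The epiblast list describes the tissue from which the streak arises. Of its 11 tested genes 2 were lower, POU5F1 and PRDM14, and 1 higher, DPPA4. Without VE4 4 genes of the list were lower, and with XIST as a covariate 4 were lower and DPPA4 was not called. POU5F1 had a log2 fold change of -1.72 ± 0.36 (SE, edgeR adjusted p = 0.00479). Its values, given above, overlapped between the groups, and 3 of the 7 IVP discs lay below all IVV discs. PRDM14, a factor of pluripotency and germ cells, was at 0.778 to 2.33 CPM (median 1.49) in the IVP discs and 1.05 to 13.6 CPM (median 4.41) in the IVV discs. DPPA4, a chromatin protein of pluripotent cells, rose, at 3.76 to 11.4 CPM (median 6.92) in the IVP discs and 1.95 to 4.34 CPM (median 3.37) in the IVV discs. DNMT3B, the de novo DNA methyltransferase and the most abundant gene of the list, averaged 199 ± 91.7 CPM against 215 ± 122 CPM (edgeR adjusted p = 0.796). The summed epiblast list ran from 257 to 663 CPM (median 293) in IVP and from 241 to 1121 CPM (median 421) in IVV discs, so that the groups overlapped. Much of this sum is DNMT3B, which the membranes also held, at 88.9 CPM in IVP and 72.5 CPM in IVV embryos. NANOG, given as a marker and outside the genes of the text counted below, averaged 7.52 ± 3.87 CPM against 19.6 ± 12.9 CPM, with overlap. It reached at most 0.179 CPM in the membranes. With the epiblast score as a covariate in place of the surrogate variable, 565 genes were lower and 185 higher, and 13 of the 14 streak genes named above were lower.

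Of 13 germ cell genes 2 were lower (NANOS3, PRDM14) and 1 higher (PIWIL2). NANOS3, which primordial germ cells need to survive, was at 0 to 0.0998 CPM (median 0.0672) in the IVP discs and 0.461 to 2.4 CPM (median 1.36) in the IVV discs, with no overlap and a log2 fold change of -4.32 ± 0.50 (SE, edgeR adjusted p = 1.17e-05). PIWIL2, a partner of small RNAs that silence transposons, was higher, at 2.6 to 13.4 CPM (median 6.46) in the IVP discs and 0.135 to 5.87 CPM (median 1.67) in the IVV discs. TDRD9, a helicase of the same silencing pathway, was higher as well, at 40.0 to 84.6 CPM (median 67) in the IVP discs and 0.968 to 20.9 CPM (median 7.78) in the IVV discs, with no overlap and a log2 fold change of 2.96 ± 0.46 (SE, edgeR adjusted p = 0.000264). In the EEM NANOS3 averaged 0.00594 ± 0.00929 CPM (SD) over the 6 IVP membranes and 1.81 ± 1.09 CPM over the 8 IVV membranes, and the EEM log2 fold changes were 2.86 (edgeR adjusted p = 2.51e-05) for PIWIL2 and 2.75 (edgeR adjusted p = 0.000105) for TDRD9, all in the direction seen in the disc.

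Of 25 trophoblast genes 2 were lower in IVP discs (8.0%, against 4.95% of all genes), a count that fell to 0 without IVPF14 or without VE29. KRT7 was at 117 to 327 CPM (median 175) in the IVP discs and 201 to 562 CPM (median 402) in the IVV discs and TKDP4, a trophoblast Kunitz domain protein, at 82.1 to 582 CPM (median 188) in the IVP discs and 163 to 1171 CPM (median 605) in the IVV discs, and neither was called with XIST as a covariate. KRT8, the most abundant, averaged 15790 ± 9623 CPM against 11490 ± 1478 CPM and did not pass the test. In the hypoblast list 1 of 20 was lower, or 5.0%, close to the share of all genes, and 0 to 3 were with one disc left out. The lower gene was CUBN, the endocytic receptor cubilin, at 0.299 to 0.913 CPM (median 0.343) in the IVP discs and 0.178 to 13 CPM (median 1.34) in the IVV discs. Its log2 fold change of -2.42 turned to 0.15 with XIST as a covariate. VE5, at 0.178 CPM, lay below the IVP discs, VE3 and VE19 lay among them at 0.594 and 0.563 CPM, although VE19 has high XIST, and VE6 alone reached 13 CPM. APOA1, an abundant apolipoprotein of the hypoblast, averaged 852 ± 333 CPM against 818 ± 324 CPM and was not called.

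Immediate early genes, which respond to stimuli within minutes, had 6 of 34 members lower (FOS, NR4A1, BTG2, ATF3, KLF2, EGR1). FOS, a subunit of the AP-1 factor, was at 38.3 to 105 CPM (median 83.4) in the IVP discs and 133 to 1258 CPM (median 361) in the IVV discs, with no overlap and a log2 fold change of -2.37 ± 0.38 (SE, edgeR adjusted p = 0.000428). ATF3, a stress-induced partner of FOS and JUN, was at 17.7 to 84.1 CPM (median 44.7) in the IVP discs and 87.3 to 250.4 CPM (median 114) in the IVV discs, with no overlap, and NR4A1, an orphan nuclear receptor, at 1.68 to 20.9 CPM (median 5.64) in the IVP discs and 8.31 to 52.1 CPM (median 30.2) in the IVV discs. With XIST as a covariate 2 of these 6 genes were lower, and without IVP11 and VE19 17 genes of the list were, the 6 among them. The EEM log2 fold changes were -2.90 (edgeR adjusted p = 9.38e-06) for FOS and -1.79 (edgeR adjusted p = 0.000183) for ATF3. Heat shock proteins had 5 of 38 lower. HSPA6 was at 0.263 to 2.02 CPM (median 1.08) in the IVP discs and 3.15 to 97.6 CPM (median 18.5) in the IVV discs, with no overlap and a log2 fold change of -4.43 ± 0.69 (SE, edgeR adjusted p = 0.000266), and HSPA1A at 80.4 to 242 CPM (median 126) in the IVP discs and 201 to 784 CPM (median 442) in the IVV discs. The cognate chaperone HSP90AB1 averaged 4759 ± 1438 CPM against 3921 ± 1116 CPM and was not called. How long each embryo waited between flushing and freezing is not in the labels.

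Histone genes had 12 of 40 tested members lower. The 12 belong to the clustered replication-type genes, and 8 of them encode histone H2B, 3 encode H2A and 1 encodes H3. H2BC5 was at 0.386 to 0.908 CPM (median 0.579) in the IVP discs and 1.29 to 5.63 CPM (median 1.94) in the IVV discs, with no overlap and a log2 fold change of -2.08 ± 0.31 (SE, edgeR adjusted p = 0.000191). H3-3B, a replacement histone whose messenger carries a poly(A) tail, averaged 796 ± 413 CPM against 713 ± 123.4 CPM and was not called. Histone genes are near-identical copies whose reads can be split in counting, and most replication-type histone messengers have no poly(A) tail, so the value of a single copy is uncertain in poly(A)-selected RNA. Genes of the cell cycle were counted beside them. Of 37 tested genes of replication and S phase 0 were DEG by edgeR or DESeq2 and 2 were lower at an unadjusted p under 0.05. Of 32 mitosis genes 0 were DEG by either tool and 2 were higher at an unadjusted p under 0.05. The median log2 fold changes of these lists were 0.05 and 0.04. RRM2, a subunit of ribonucleotide reductase, averaged 438 ± 194 CPM against 351 ± 64.5 CPM, and the spindle checkpoint gene MAD2L1 averaged 446 ± 155 CPM against 314 ± 158 CPM.

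Genes of translation and basic metabolism followed. Of 80 ribosomal protein genes 0 were DEG by edgeR, 3 were lower at an unadjusted p under 0.05, 2 were lower by DESeq2, and the median log2 fold change was -0.13. Nuclear genes of the respiratory chain had 1 of 82 lower, NDUFB11, at 52.4 ± 29.4 CPM against 90.3 ± 38.3 CPM, and 70 of the 82 fitted values were below 0, with a median of -0.17. The 13 genes of mitochondrial DNA had a median of 0.81, with all 13 fitted values above 0. At an unadjusted p under 0.05, 11 of them were higher, but only 1 was called. This was ND5, a subunit of complex I, at 1262 to 6101 CPM (median 2466) in the IVP discs and 411 to 6932 CPM (median 748) in the IVV discs. Without the surrogate variable ND5 was not called (edgeR adjusted p = 0.586), and it was called in 6 of 16 fits with one disc left out. COX1, the most abundant, averaged 24130 ± 13580 CPM against 23390 ± 25520 CPM and did not pass the test. Glycolysis had 1 of 27 lower, TPI1, at 27.9 ± 6.82 CPM against 48 ± 9.36 CPM. In serine, glycine and folate metabolism PHGDH and PSAT1, the first enzymes of serine synthesis, were higher, at 109 ± 61.7 CPM against 52.3 ± 17.7 CPM and 15 ± 7.69 CPM against 7.11 ± 1.65 CPM, and GLDC, which breaks down glycine, was lower, at 1.5 ± 0.647 CPM against 3.63 ± 2.86 CPM. The glutathione and antioxidant list had 7 of 35 lower, all glutathione transferases (GSTA1, GSTA3, GSTM3, GSTO1, GSTP1, GSTT1, MGST3), and 1 higher, TXNIP, an inhibitor of thioredoxin, at 2.15 ± 0.911 CPM against 0.847 ± 0.318 CPM. MGST3 was at 1.16 to 5.99 CPM (median 3.62) in the IVP discs and 4.16 to 16.5 CPM (median 11.3) in the IVV discs, and PRDX1, the most abundant of the list, averaged 2988 ± 1557 CPM against 3161 ± 1084 CPM and was not called.

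The 220 genes higher in IVP discs formed few groups among the lists, and the leading ones are enzymes, receptors and regulators of different kinds. HSD3B1, which makes progesterone and other steroids, was at 45.8 to 216 CPM (median 149) in the IVP discs and 21.8 to 63.6 CPM (median 27.4) in the IVV discs, and 6 of the 7 IVP discs lay above all IVV discs. Of 22 genes of steroid synthesis 2 were higher, HSD3B1 and SULT1E1, an estrogen sulfotransferase, at 5.05 ± 1.98 CPM against 2.13 ± 1.25 CPM. Prostaglandin synthesis also had 2 of 14 higher, PLA2G4A, which frees arachidonic acid, at 6.81 ± 3.9 CPM against 2.21 ± 1.12 CPM, and HPGD, which inactivates prostaglandins, at 0.438 to 4.49 CPM (median 1.4) in the IVP discs and 0.192 to 1.04 CPM (median 0.415) in the IVV discs. Over all genes 1.4% were higher. With one disc left out 1 to 4 prostaglandin genes were higher, and PLA2G4A was called in 9 of 16 such fits. PTGS2, the inducible cyclooxygenase of the elongating trophoblast, averaged 3082 ± 1609 CPM against 1939 ± 721 CPM and was not called.

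SCTR, the secretin receptor, was at 0.359 to 5.79 CPM (median 1.000) in the IVP discs and 0.0175 to 0.200 CPM (median 0.0872) in the IVV discs, with no overlap and a log2 fold change of 3.97 ± 0.55 (SE, edgeR adjusted p = 7.19e-05). PDX1, a pancreatic and duodenal homeobox factor, was at 0.511 to 4.38 CPM (median 1.24) in the IVP discs and 0.0479 to 0.385 CPM (median 0.113) in the IVV discs, again with no overlap. GPR143, a receptor known from pigment cells, was at 5.32 to 17.2 CPM (median 8.33) in the IVP discs and 0.833 to 5.11 CPM (median 2.16) in the IVV discs, with no overlap. BCL3, a regulator of NF-kappaB, was at 8.14 to 42.6 CPM (median 14.5) in the IVP discs and 4.43 to 8.42 CPM (median 5.37) in the IVV discs, with a log2 fold change of 1.75 ± 0.28 (SE, edgeR adjusted p = 0.000449). DMBT1, a secreted mucosal scavenger protein, was at 0.662 to 6.8 CPM (median 1.4) in the IVP discs and 0 to 0.301 CPM (median 0.158) in the IVV discs, with no overlap. TNFSF9, the ligand of a costimulatory receptor, was at 13.2 to 66.9 CPM (median 30.02) in the IVP discs and 8.18 to 19.1 CPM (median 11) in the IVV discs, and TNFRSF9, its receptor, rose with it, at 6.52 to 26.7 CPM (median 13) in the IVP discs and 1.28 to 7.78 CPM (median 6.66) in the IVV discs. DDIT4, an inhibitor of mTOR induced by stress and low oxygen, was at 54.9 to 172 CPM (median 106) in the IVP discs and 20.6 to 70.9 CPM (median 40.1) in the IVV discs, with a log2 fold change of 1.55 ± 0.27 (SE, edgeR adjusted p = 0.000883). In the hypoxia list 1 of 25 genes was higher, DDIT4, and 1 was lower, ANGPTL4, a lipase inhibitor, at 0.463 ± 0.274 CPM against 1.78 ± 1.1 CPM.

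Among the DEG the largest gains in mean CPM were those of ND5 and of SCD, the stearoyl-CoA desaturase, at 1069 to 2267 CPM (median 1561) in the IVP discs and 396 to 1401 CPM (median 811) in the IVV discs, SLC34A2, a phosphate transporter, at 463 to 1674 CPM (median 1021) in the IVP discs and 214 to 667 CPM (median 440.2) in the IVV discs, AHNAK, a very large scaffold protein, at 357 to 1626 CPM (median 1066) in the IVP discs and 426 to 765 CPM (median 568) in the IVV discs, and TRAM2, a translocon protein, at 376 to 1204 CPM (median 586) in the IVP discs and 188 to 431 CPM (median 287) in the IVV discs. The largest losses among the DEG were those of TKDP4, UBB, a ubiquitin gene, at 635 ± 403 CPM against 990.1 ± 342 CPM, FOS, HSPA1A and TMSB4X, an actin-binding peptide, at 181 ± 101 CPM against 364 ± 103 CPM. SCD5, the second desaturase gene, went the other way from SCD, at 2.38 ± 1.05 CPM against 7.42 ± 5.69 CPM. Of 284 solute carriers 12 were lower and 7 higher, shares of 4.23% and 2.46%, against 4.95% and 1.4% of all genes. With one disc left out 9 to 17 were lower and 4 to 13 higher.

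**Figure D4:**
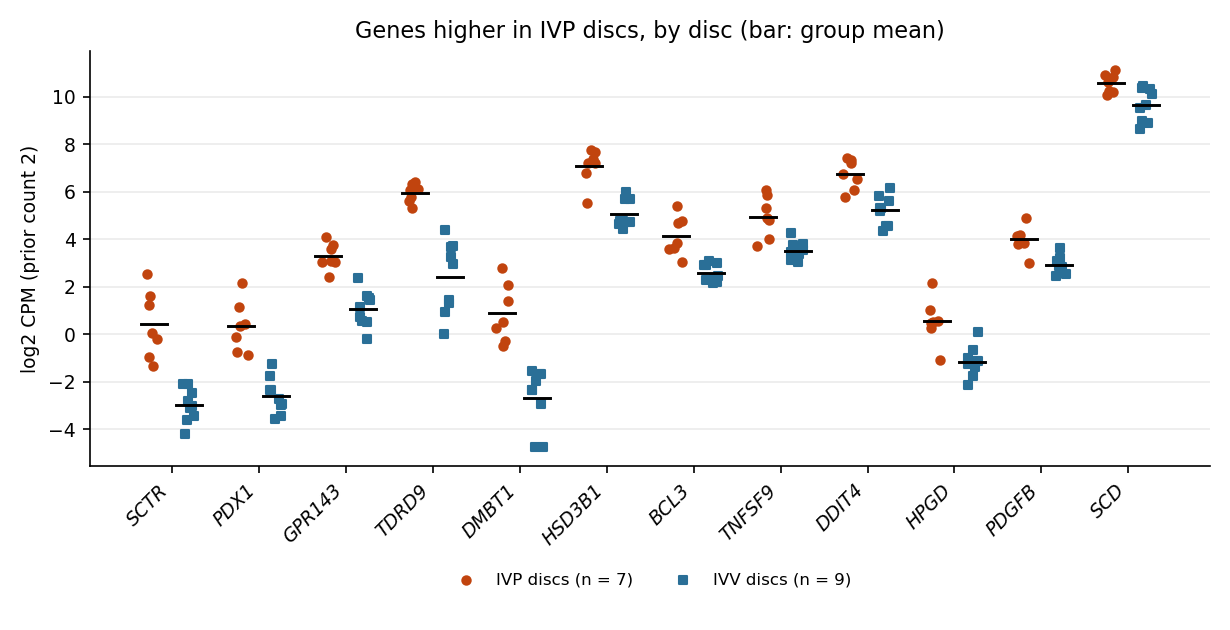
Log2 CPM (prior count of 2) of 12 genes higher in IVP discs, one point per disc, with 7 IVP and 9 IVV discs side by side for each gene and a bar at each group mean. The groups do not overlap for SCTR, PDX1, GPR143, TDRD9 and DMBT1, and they overlap for the other 7 genes.

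With XIST as a covariate the adjusted p of HSD3B1 was 0.000821, that of SCTR 0.0125, that of PDX1 0.0372, that of TDRD9 0.0464, that of BCL3 0.0215, that of DMBT1 0.044 and that of HPGD 0.0325 (edgeR). It was over 0.05 for the other genes plotted by disc as higher in IVP, at 0.0659 for GPR143, 0.0659 for TNFSF9, 0.0896 for DDIT4, 0.0883 for PDGFB and 0.36 for SCD, and likewise at 0.104 for TNFRSF9, 0.0537 for ND5, 0.377 for SLC34A2, 0.133 for AHNAK and 0.283 for TRAM2 (edgeR). For leading lower genes it was 2.05e-07 for FLI1, 1.76e-07 for MYO3A, 1.67e-05 for APLNR, 2.94e-05 for MESP2, 0.000437 for KDR, 0.000142 for ID1, 1.21e-05 for TGFBI and 0.00332 for FOS (edgeR). KDM6A, an X-linked histone demethylase that escapes X inactivation in several mammals, was lower in IVP discs, at 27 ± 9.2 CPM against 48.9 ± 15.5 CPM, and had an adjusted p of 0.565 with the covariate (edgeR). The IVP discs ran from 13.6 to 38 CPM of KDM6A, and 4 IVV discs lay inside that range, VE5 at 32.2 CPM and, with high XIST, VE26 at 34.3, VE28 at 35.3 and VE19 at 37.4 CPM. Of the 108 called genes that are named with values, 44 were not called in that fit. Their log2 fold change with the covariate was at least as large as without it in 18 of the 44, between 0.5 and 1 times as large in 23, and smaller or reversed in 3, CUBN, IGF2 and TKDP4. Besides those just given they were ALDH1A3, ATF3, AXL, CUBN, DLK1, DPPA4, IGF2, ITGA5, ITGB2, KCNN4, KDM4B, KRT20, KRT7, LIFR, NDUFB11, PAX2, PHGDH, PIWIL2, PLA2G4A, PSAT1, RSPO3, RUNX1, SEMA4B, SOX18, SULT1E1, TFAP2B, TKDP4, TMSB4X, TPI1, TXNIP, UBB, USP18 and VWC2. Without the surrogate variable 12 were not called, namely ABCA1, AHNAK, AXL, GLDC, IGF2, KDM4B, ND5, NDUFB11, PAX2, SCD, UBB and USP18.

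Immune genes and genes of excitable cells were followed last. MHC and antigen processing genes had 4 of 21 lower (BOLA-DMB, BOLA-DRB3, CD74, PSMB8). BOLA-DRB3, a class II chain, was at 0.0877 to 0.491 CPM (median 0.132) in the IVP discs and 0.0551 to 3.24 CPM (median 1.09) in the IVV discs. Class II chains and CD74 are also leukocyte genes, and PTPRC, whose values are given above, likewise had its highest values in IVV discs. The part of leukocytes in this result was not tested. Cytokines, chemokines and their receptors had 7 of 84 lower and 3 higher. IL1A, interleukin 1 alpha, was lower, at 0.0877 to 0.579 CPM (median 0.438) in the IVP discs and 0.809 to 6.82 CPM (median 2.08) in the IVV discs, with no overlap, and LIFR, the receptor of LIF, was at 0.396 ± 0.254 CPM against 2.1 ± 1.46 CPM. Interferon response genes had 1 of 22 lower and 1 higher, USP18, at 18.2 ± 5.58 CPM against 10.6 ± 3.15 CPM, and IRF7 averaged 53.5 ± 27.5 CPM against 67.1 ± 24.3 CPM and was not called. Ion channels and neurotransmitter receptors had 20 of 161 lower and 1 higher. SCN9A, a voltage-gated sodium channel, was at 0.0599 to 0.298 CPM (median 0.17) in the IVP discs and 0.549 to 2.44 CPM (median 1.21) in the IVV discs, with no overlap, and TRPV4, a cation channel that senses stretch, was at 0.0351 to 0.351 CPM (median 0.267) in the IVP discs and 0.762 to 2.26 CPM (median 1.35) in the IVV discs, also with no overlap. KCNN4, a calcium-activated potassium channel, was the one that rose, at 3.19 ± 2.5 CPM against 1.04 ± 0.451 CPM. The calcium-binding protein PVALB was at 0 to 0.104 CPM (median 0.0567) in the IVP discs and 0.62 to 3.17 CPM (median 1.84) in the IVV discs, and the secreted protease HTRA1 at 0 to 0.211 CPM (median 0.151) in the IVP discs and 1.18 to 5.55 CPM (median 3.68) in the IVV discs, neither with overlap.

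The disc was then set beside the membranes. In the EEM 561 of 14718 genes (3.81%) differed between IVP and IVV embryos. Of the 778 lower DEG of the disc 420 had enough counts to be tested in the EEM, and 97 were called there, 91 in the same direction. Of the 220 higher DEG 210 were tested in the EEM and 95 were called, all 95 in the same direction. Of the genes not called in the disc 325 were called in the EEM, and 261 of these also had the same direction in both tissues. The 13 embryos with both tissues share their procedure and their cows, so that these counts do not come from independent embryos. Whether the difference between IVP and IVV embryos itself differed between the tissues was tested in these embryos as an interaction, with the embryo as a block. It was called for 172 of 16784 genes (1.02%), of which 154 were more negative in the disc and 18 more positive. They included 81 of the lower DEG of the disc and 1 of the higher DEG, SCTR.

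FBN2 had the interaction with the smallest adjusted p among the genes named here. Its log2 fold change was -1.80 in the disc and 2.54 (edgeR adjusted p = 0.000286) in the EEM, and the interaction was -4.35 (standard error 0.45, edgeR adjusted p = 5.51e-05). In the EEM it averaged 1.06 ± 0.577 CPM (SD) over the 6 IVP membranes and 0.171 ± 0.0688 CPM over the 8 IVV membranes. WNT5A fell in the disc, had an EEM log2 fold change of 1.19 (edgeR adjusted p = 0.0827), and had an interaction of -4.18 (standard error 0.51, edgeR adjusted p = 0.000278). ITGB2 had EEM values of 1.46 ± 0.632 CPM (SD) over the 6 IVP membranes and 0.725 ± 0.425 CPM over the 8 IVV membranes and an interaction of -2.63 (standard error 0.62, edgeR adjusted p = 0.045). For KDR, TGFBI and TNC the EEM held too few counts for a test of its own, and the interactions were -5.0 (standard error 0.86, edgeR adjusted p = 0.00541), -3.24 (standard error 0.60, edgeR adjusted p = 0.00944) and -3.44 (standard error 0.82, edgeR adjusted p = 0.0464). Among the genes named with values SCTR was the one with a positive interaction that passed the test, 4.28 (standard error 0.74, edgeR adjusted p = 0.00549). Its EEM means were 0.093 CPM in IVP and 0.107 CPM in IVV membranes, too few counts for a test of its own. At the other end, FOS, HSD3B1, TDRD9 and BCL3 had interactions of 0.26, 0.20, 0.04 and -0.30, with edgeR adjusted p of 0.924, 0.896, 0.994 and 0.875, which does not show that the tissues respond alike.

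**Figure D5:**
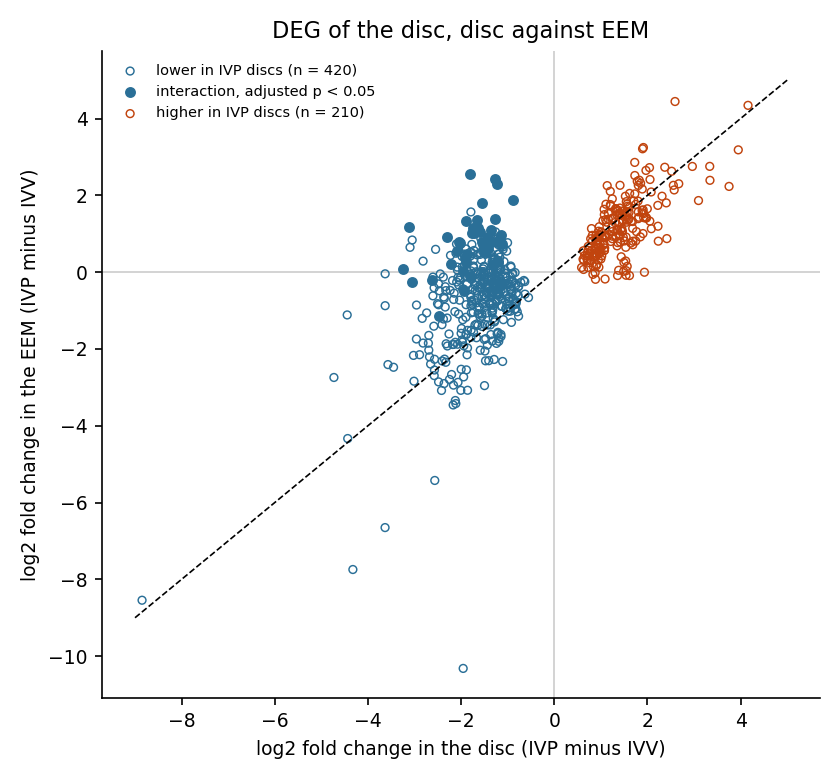
Log2 fold change (IVP minus IVV) in the EEM on the y axis against that in the disc on the x axis, for the DEG of the disc that were tested in the EEM (420 lower, 210 higher). Filled points mark genes with an interaction at an adjusted p under 0.05, and the dashed line marks equal change. Genes higher in IVP discs lie mostly above 0 in the EEM, while many lower ones lie near 0.

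The spread among the discs of a group was described as well, with no test. Over all tested genes the median standard deviation of log2 CPM was 0.65 among IVP discs and 0.51 among IVV discs, and 67.8% of genes varied more among IVP discs. Among the genes that were not called, the share was 69.5%, and among the higher DEG 51.8%. The lower DEG went the other way, with 41.3% more variable among IVP discs. Their median standard deviation was 0.73 among IVP and 0.87 among IVV discs. Without IVP11 and VE19 the medians over all tested genes were 0.61 and 0.49, and 64.9% of genes varied more among IVP discs. The number of genes at 1 CPM or more was 11925 to 12425 in IVP discs and 12140 to 12960 in IVV discs.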

How the data were processed

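RNA of discs and membranes was poly(A)-selected and sequenced without strand information in paired ends, and reads were cleaned with SOAPnuke. The submitters' processing notes name FastQC 0.11.9, Trimmomatic, STAR 2.7.0b and featureCounts of Subread 2.0.3. The authors deposited raw counts per gene for all 30 libraries, in which ED libraries held 48713218 to 63037371 counts. Of 35092 gene IDs 31630 were matched to a name in RefSeq.

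Groups were taken from the labels. IVP and IVV discs were compared with edgeR 4.0.16 (R 4.3.3), by quasi-likelihood test with TMM factors, filterByExpr at 10 counts and 1 surrogate variable (sva 3.50.0), with Benjamini-Hochberg adjustment at 0.05 over all genes tested. The EEM was fitted likewise, and the interaction had the embryo as a block. Log2 CPM used a prior count of 2, and 3 counts per library were the floor. Alternatives were DESeq2 1.42.0, limma 3.58.1, other scalings, filters, covariates and subsets. The epiblast covariate, the fits and spreads without IVP11 and VE19, and the list counts under each setting were chosen after seeing the data.

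The members and the 62 lists were chosen with earlier results of these data known. Named genes were the 10 DEG with the smallest p and the 5 with the largest difference in mean CPM in each direction, and in each list the 2 lower and 2 higher DEG with the smallest p and the most abundant member, with LOC numbers passed over. Genes given only as names within a list's count, and those named as such, fall outside this rule. Other data of the study were not analysed here. Some genes that the rule names are not reported here.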

Additional observations from a re-analysis of the deposited data

Results flagged for a closer look

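In some genes and sums a disc lay apart from the others of its group by Dixon's test at the 95% level, which chance alone flags in about 1 group of 20. This was found in 21 of the 277 groups looked at, on the log2 CPM scale, where a gene without counts stands at -4.77. VE19 was the lowest IVV disc for KDR (-0.28), PDGFRB (-2.21), PIWIL2 (-2.54), ABCA1 (4.03), APLNR (-1.93), PTGS2 (9.11), PLA2G4A (-3.26), CDH11 (-0.85), ITGAL (-1.51) and FLI1 (-2.54), and its sum over the genes called higher, 11400 CPM, was the highest of the IVV discs. In IVV discs, VE4 was the lowest for CLDN10 (-2.07) and BOLA-DRB3 (-3.45), VE3 had no count of LHX4 (-4.77), and VE24 was the lowest for H3-3B (8.82). VE5 had the highest sum of the epiblast list, 1121 CPM. Among IVP discs, IVPF10 was the lowest for HSD3B1 (5.52), IVP10 had no count of KDR (-4.77) and IVP11 none of NANOS3 (-4.77), IVP11 was the highest for KCNN4 (3.13), and IVPF14 alone had any count of CD34 (-4.17).

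The difference between IVP and IVV differed between disc and EEM, by the interaction in 13 embryos with the embryo as a block (edgeR adjusted p under 0.05), for 18 of the 131 genes of the text. Besides FBN2 (-4.35), WNT5A (-4.18), ITGB2 (-2.63), KDR (-5.0), TGFBI (-3.24), TNC (-3.44) and SCTR (4.28), these were CDH11 (-5.38), CLDN10 (-8.38), COL9A2 (-3.53), HOXA13 (-10.77), ID4 (-1.59), LHX4 (-11.96), MSX1 (-1.89), NR2F1 (-5.14), SCD5 (-5.69), UNC5C (-4.53) and WNT3 (-2.69), each value being the log2 fold change in the disc minus that in the EEM. For HOXA13 the EEM held 0.604 ± 0.962 CPM (SD) over the 6 IVP membranes and 0.00249 ± 0.00705 CPM over the 8 IVV membranes, and for LHX4 0.771 ± 0.696 CPM (SD) over the 6 IVP membranes and 0.00653 ± 0.00901 CPM over the 8 IVV membranes, the reverse of the order in the disc. With IVP discs at the floor, the size of both fitted values also depends on the prior count. CDH11, CLDN10, NR2F1, SCD5, UNC5C and SCTR also held too few counts in the EEM for a test of its own. Their interaction values thus rest on few counts in the membranes. CLDN10, for instance, averaged 0.0814 CPM over the IVP and 0.00212 CPM over the IVV membranes.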

How the results depend on the processing

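The excess of lower DEG was found in each alternative fit, while the number of DEG moved with the setting. Of 998 DEG in the main analysis, 778 lower and 220 higher, DESeq2 gave 1512 (411 higher), no filter on low counts 1846 (1388 lower, 458 higher) and at least 10 counts in every disc 431 (324 lower, 107 higher), the last testing fewer genes. With only the IVP discs titled IVP and not IVPF there were 240 (163 lower, 77 higher), and with only those titled IVPF 658 (470 lower), both from fewer discs. With XIST as a covariate there were 653 (52 higher). Leaving out one disc gave 639 to 1160 DEG, 499 to 951 lower and 140 to 297 higher. The lowest counts came without VE29 (639 in all, 499 lower, 140 higher), and without VE5 and VE28 the lower DEG numbered 506 and 510. With a floor of 10 counts 0 genes in place of 1 were at the floor in IVV discs alone.

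Over the 131 genes of the text, leaving out one disc reversed no direction in 2082 values, of which 175 were no longer past the threshold. Of 108 genes called, 76 stayed called whichever disc was left out, and 64 with XIST as a covariate. Other settings left 278 of 2176 values past the threshold no more, brought 8 past it and reversed 1, the log2 fold change of CUBN, which was 0.15 with XIST as a covariate. IVP and IVV discs come from different embryos, so no pairing between them exists. The replicate block is the embryo in the interaction of tissue and procedure, with 172 genes called. Without the block 229 were called, with no filter 356, and leaving out one embryo gave 101 to 211. Counts under 115 came without VE29 (101), VE28 (104), IVP10 (109) and IVPF14 (109). The cause of these shifts was not tested. Rare transcripts near the floor limit the folds, which are then bounds, and 7 against 9 discs from few cows limit what the tests cover.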

Other observations

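Further gene lists were counted beside those of the report, where 4.95% of all tested genes were lower and 1.4% higher. Among 66 tested matrix proteases and inhibitors 5 were lower, 2 to 7 with one disc left out, and 1 higher in IVP discs, with ADAMTS13, the protease of von Willebrand factor, at 0.065 ± 0.0744 CPM against 0.454 ± 0.232 CPM and ADAMTS10 at 0.595 ± 0.29 CPM against 1.88 ± 0.863 CPM (mean ± SD, 7 IVP and 9 IVV discs in that order). Nuclear receptors had 4 of 38 lower, 1 to 6 with one disc left out, and NR2F1, an orphan receptor, was at 0 to 0.151 CPM (median 0.0527) in the IVP discs and 0.0886 to 0.507 CPM (median 0.315) in the IVV discs. Of 29 genes of DNA methylation and imprinting 2 were lower, IGF2 and DLK1, an imprinted gene that encodes an inhibitor of differentiation, at 0 to 0.133 CPM (median 0.0567) in the IVP discs and 0.122 to 0.551 CPM (median 0.315) in the IVV discs, and neither was called with XIST as a covariate (edgeR adjusted p = 0.997 and 0.0794), where the log2 fold change of IGF2 went from -1.19 to -0.08 and that of DLK1 from -2.15 to -2.44. Histone modifying enzymes had 3 of 65 lower, or 4.62%, a share close to that of all genes, among them KDM4B at 11.4 ± 5.48 CPM against 20.04 ± 6.87 CPM, which was called neither with XIST as a covariate nor without the surrogate variable. Of 34 genes of the p53 response and apoptosis 3 were lower, 2 to 6 with one disc left out, with CASP8, the initiator caspase of death receptors, at 0.377 ± 0.100 CPM against 1.57 ± 0.675 CPM.

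In the other lists at most 3 genes passed the test. Of 27 genes of the unfolded protein and integrated stress response 2 were lower, ATF3 and HERPUD1, and 1 higher, DDIT4. Of 14 keratins KRT7 was lower and KRT20 higher, the latter at 8.58 ± 6.44 CPM against 1.54 ± 1.67 CPM. Cholesterol synthesis and uptake had 1 of 24 higher, ABCA1, the cholesterol exporter, at 137 ± 64.1 CPM against 71.2 ± 32.8 CPM, and the fatty acid list 1 lower and 1 higher of 43, SCD5 and SCD. In planar cell polarity and cilia 1 of 42 was lower, ROR2, in the Hippo list 1 of 20, AXL, at 1.63 ± 1.07 CPM against 3.75 ± 1.97 CPM, among ETS factors 1 of 22, FLI1, and among maternal uterine genes 1 of 5, MSX1, which mesenchyme also expresses.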
